A study of Homo sapiens with 6 samples.

Results

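Histone demethylases, histone methyltransferases and deacetylases are described here in HCT116, a cell line derived from a human colorectal carcinoma, after knockdown of the serine protease gene PRSS22. The members are all genes of the deposited table whose symbol begins with KDM, KMT2, KMT5, SETD, HDAC or SIRT, chosen by name: 56 of 17269 genes, made up of 19 demethylases, 19 methyltransferases, 11 zinc-dependent deacetylases and 7 sirtuins. Poly(A) RNA was sequenced in 3 libraries of cells carrying a short hairpin against PRSS22 (shPRSS22; genotype given as PRSS22 knockdown) and 3 libraries of control-hairpin cells (shCtrl; genotype given as WT), all in the same line and the same serum-supplemented medium. The labels give neither the hairpin sequence, nor the time after its introduction, nor whether a clone or a pool was used. Whether the replicates were grown separately is not stated; the p-values rest on the spread among these 6 libraries, and that spread may be technical.

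Lysine methylation of histone tails is written by SET-domain methyltransferases and removed by demethylases, either the flavin-dependent KDM1 enzymes or the iron- and 2-oxoglutarate-dependent JmjC enzymes. Acetyl groups are removed by the zinc-dependent HDAC enzymes or by the NAD-dependent sirtuins. The outcome depends on the residue: methylation of H3K4 or H3K36 marks transcribed genes, and methylation of H3K9 or H3K27 marks silent chromatin. In colorectal cancer these enzymes are studied as targets of inhibitors, in particular those of class I HDACs and of KDM1A. Several members act mainly on proteins other than histones, such as tubulin, actin or mitochondrial enzymes.

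PRSS22 itself was at 3.09, 3.16 and 2.61 CPM in shPRSS22 replicates 1 to 3, against 10.1, 9.38 and 10.1 CPM in shCtrl replicates 1 to 3. CPM is the count per 1000000 of a library's TMM-scaled total. For summed marker levels and the cut at 0.5 CPM the total was not TMM-scaled. Library totals lay between 14920523 and 15466647 estimated counts. Of 8 colorectal epithelial markers 6 were well detected, among them EPCAM and KRT8, while VIL1 and LGALS4 lay under 0.5 CPM on average; of 11 fibroblast, immune and endothelial markers 8 lay under 0.5 CPM, with CDH5 at 0 in every library. The summed level of these 11 markers was 45.9 to 55.1 CPM in shPRSS22 and 39.5 to 48.5 CPM in shCtrl. Most of it came from CD68 and from COL1A1, at means of 30.3 CPM in shPRSS22 and 28.7 CPM in shCtrl. The summed level of 8 genes of differentiated intestine was 45.9 to 49.98 CPM in shPRSS22 and 36.6 to 38.8 CPM in shCtrl, most of it CA2. Both tested genes of that list passed as higher, KRT20 (log2 fold change 1.29, adjusted p = 0.00204; 53, 23 and 24 counts in shPRSS22 against 13, 15 and 12 in shCtrl) and CA2 (0.29, adjusted p = 7.54e-05), as did the macrophage marker CD68 (0.24, adjusted p = 0.0271). The library shPRSS22 replicate 1 stood apart in low-count genes of differentiated intestine: FABP1 had 13 counts there and SLC26A3 had 16, against 0 in each of the other 5 libraries. The part of these markers in the results was not tested, and counts are also given without that library.

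Of the 56 members 54 had enough counts to be tested. KDM4E had 0 counts in every library, which allows up to 3 counts per library, and KDM5D was also too low. In shPRSS22 cells 10 of the 54 were higher and 11 were lower (edgeR's quasi-likelihood test, Benjamini-Hochberg adjusted p under 0.05 over all 13104 genes tested). Among all genes tested, 19.9% were higher and 19.3% lower (39.1% in either direction), so the members' shares of 18.5% higher and 20.4% lower lay near the background. At a mean of at least 5 CPM, 10 of 51 members were higher and 11 lower, beside 21.7% and 21.1% of all such genes. The median log2 fold change of the tested members was -0.01, as it was over all genes tested. Without shPRSS22 replicate 1, 7 members were higher and 10 lower. That fit gave 2371 genes higher and 2271 lower over the table, against 2603 and 2523 with all libraries.

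The changes were small. The largest fold among members that passed was 1.31, that of SIRT5, and none reached 1.5-fold, where 9.27% of all called genes did. Their median fold was 1.15, against 1.19 for all 5126 called genes. In 19 of the 21 called members the 3 shPRSS22 libraries did not overlap the 3 shCtrl libraries, the exceptions being SETD6 and HDAC11. The calls rest on these same libraries, so this count is no separate support for them. Over the 54 members the groups did not overlap for 12 in the higher and 11 in the lower direction, where 24.2% and 24.3% of all genes tested did so. In bulk RNA, fewer cells with a transcript and less of it per cell cannot be told apart.

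Levels between genes were compared on the deposited TPM, which is scaled by transcript length. HDAC1 and HDAC2, the catalytic subunits of the NuRD, SIN3 and CoREST corepressor complexes, were the most abundant members: HDAC1 had 289.3 ± 6.02 TPM in shPRSS22 and 278.5 ± 4.28 TPM in shCtrl, and HDAC2 had 163.7 ± 2.25 TPM in shPRSS22 and 165.1 ± 4.19 TPM in shCtrl (SD, n = 3 each). KDM1A, the flavin-dependent H3K4 demethylase of CoREST, followed with 87.2 ± 3.49 TPM in shPRSS22 and 87.8 ± 0.982 TPM in shCtrl. HDAC3, the deacetylase of the NCOR complexes, had 80.7 ± 1.16 TPM in shPRSS22 and 79.7 ± 1.87 TPM in shCtrl. None of these 4 passed the test, with log2 fold changes of 0.05 for HDAC1 (SE 0.0326), -0.01 for HDAC2 (SE 0.0337), -0.02 for KDM1A (SE 0.0376) and 0.01 for HDAC3 (SE 0.0427). The remaining tested members had mean levels between 1.53 TPM (KDM8) and 47.2 TPM (SETD3).

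**Figure D1:**
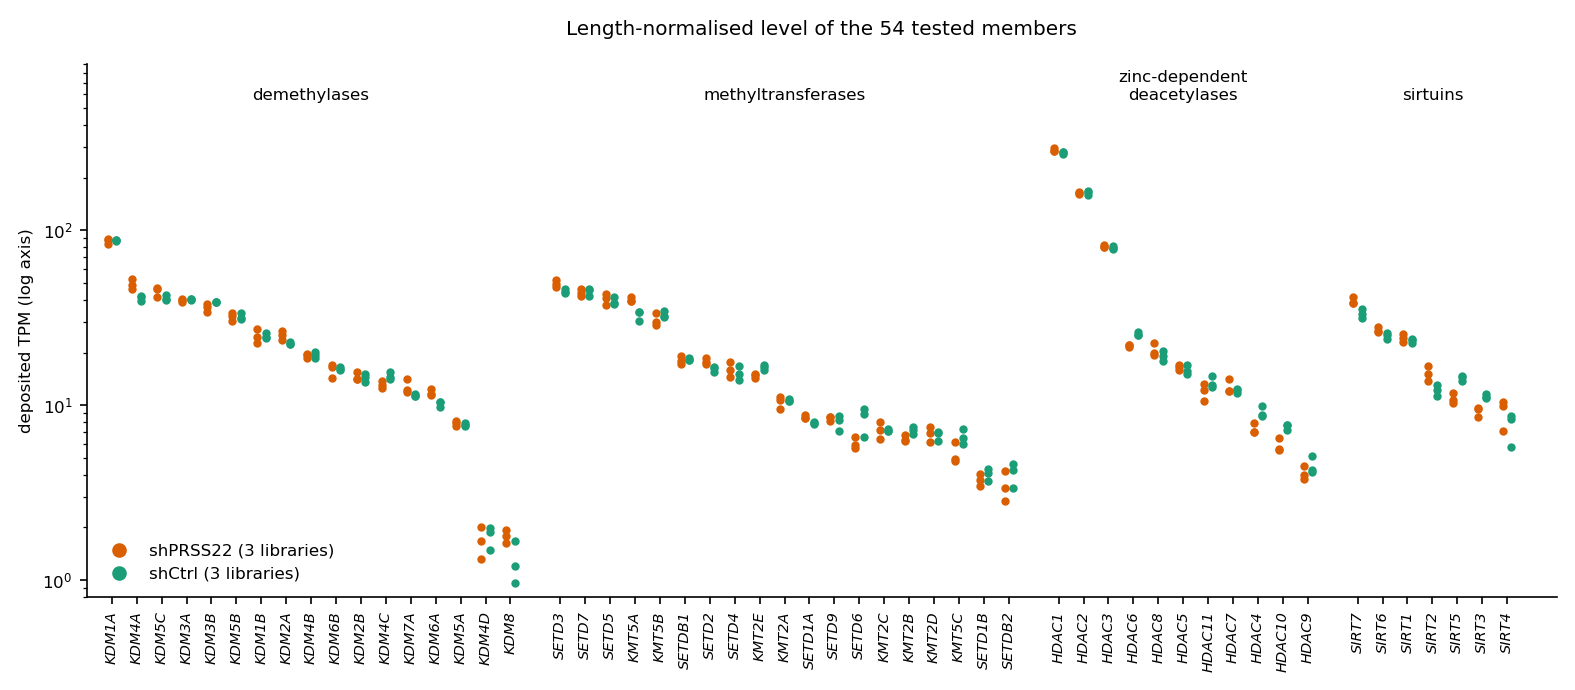
Deposited TPM (log axis) of the 54 tested members in each shPRSS22 library (orange, left of each pair) and each shCtrl library (green, right), ordered by mean level within each family. HDAC1 and HDAC2 stand above all other members, and KDM4D and KDM8 are lowest.

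**Figure D2:**
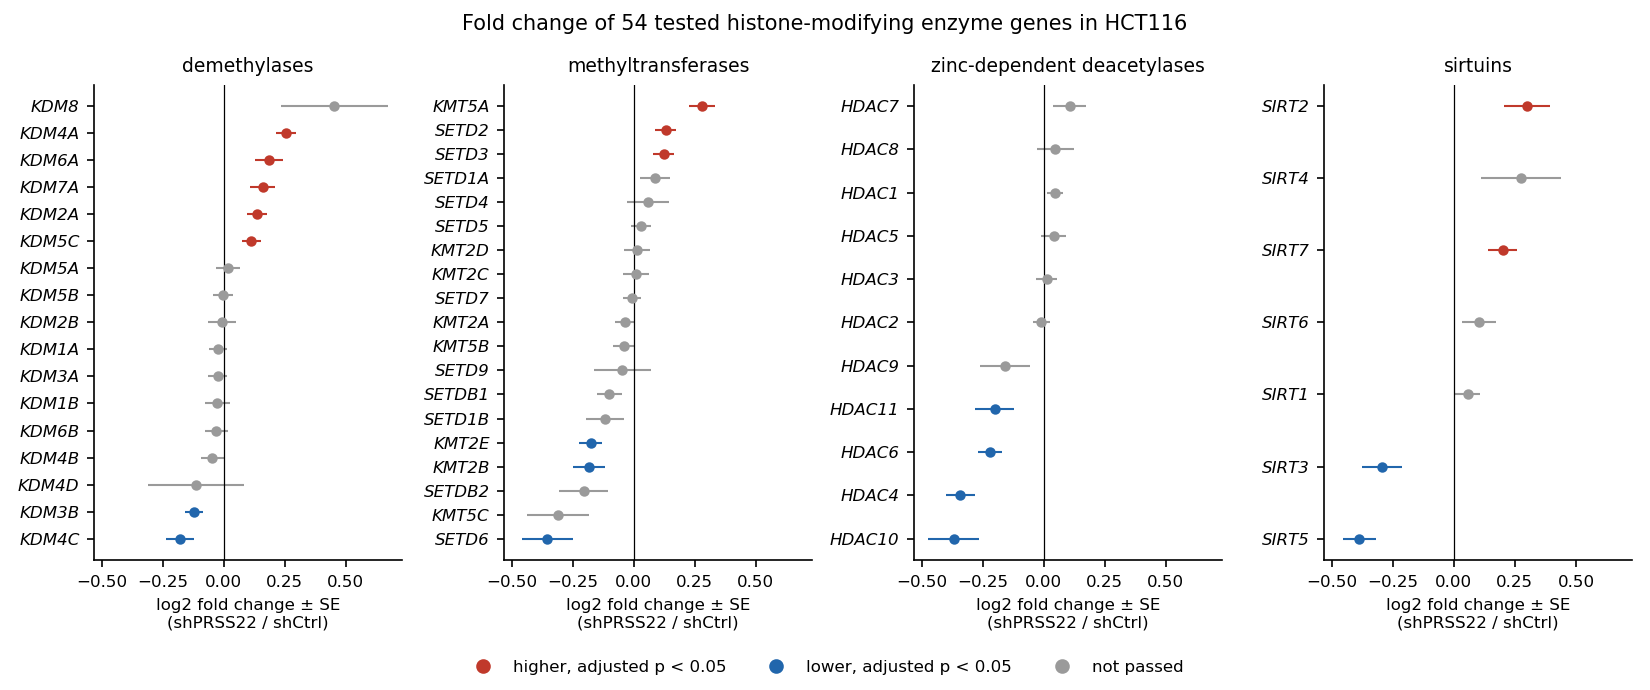
Log2 fold change (shPRSS22 over shCtrl) with its standard error for the 54 tested members, by family; red members were higher and blue members lower at an adjusted p under 0.05, and grey members did not pass. Higher and lower members occur in 3 of the families, while no zinc-dependent deacetylase was higher.

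Among the demethylases 5 of 17 tested members rose and 2 fell, where 19.9% of all genes tested rose and 19.3% fell. All 7 belong to the JmjC class, which makes up 15 of the 17. The 2 KDM1 enzymes did not pass, and the classes were not compared by a test. KDM4A, which removes methyl groups from H3K9 and H3K36, rose with the smallest p-value of all members. It stood at 125, 124 and 137 CPM in shPRSS22 replicates 1 to 3 and at 109, 104 and 110.0 CPM in shCtrl replicates 1 to 3. Every shPRSS22 library lay above every shCtrl library, and the log2 fold change was 0.25 (SE 0.0410, adjusted p = 8.41e-06). Its paralog KDM4C, which acts on the same residues, moved the other way: it stood at 33.9, 32.3 and 33.2 CPM in shPRSS22 and 39.3, 37.1 and 36.1 CPM in shCtrl, again without overlap. Its log2 fold change was -0.18 (SE 0.0576, adjusted p = 0.0143). KDM4C did not pass with DESeq2's test (adjusted p = 0.0950), and the authors' q-value for it was 0.124. In GENCODE 29, 40.2% of the KDM4A exon bases lie in exons of a same-strand gene, AL451062.3, and 8.97% under the antisense gene KDM4A-AS1. KDM4B, a further broadly expressed KDM4 enzyme, had a log2 fold change of -0.05 (SE 0.0463), and KDM4D, at under 3 CPM, one of -0.11 (SE 0.198); neither passed.

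Because this pair of paralogs moved in opposite directions, the sequence around their transcription starts is shown, from 250 bases before to 50 bases after the start, 5′ to 3′ along the gene, as RefSeq gives it for GRCh38.p14. The KDM4A window is chr1:43649899-43650198 on the plus strand and the KDM4C window chr9:6757723-6758022 on the plus strand. Capitals mark matches, on either strand, to 5 motifs searched as plain letters: the CCAAT box (CCAAT), the NRF1 motif, the antioxidant response element core (TGACNNNGC), the cAMP response element (TGACGTCA) and the E-box (CACGTG).
KDM4A: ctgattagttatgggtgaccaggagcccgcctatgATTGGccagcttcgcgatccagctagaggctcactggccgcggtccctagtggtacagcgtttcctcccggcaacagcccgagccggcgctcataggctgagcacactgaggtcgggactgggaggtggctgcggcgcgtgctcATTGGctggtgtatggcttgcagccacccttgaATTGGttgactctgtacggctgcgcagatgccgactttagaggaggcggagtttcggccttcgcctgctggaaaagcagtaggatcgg
KDM4C: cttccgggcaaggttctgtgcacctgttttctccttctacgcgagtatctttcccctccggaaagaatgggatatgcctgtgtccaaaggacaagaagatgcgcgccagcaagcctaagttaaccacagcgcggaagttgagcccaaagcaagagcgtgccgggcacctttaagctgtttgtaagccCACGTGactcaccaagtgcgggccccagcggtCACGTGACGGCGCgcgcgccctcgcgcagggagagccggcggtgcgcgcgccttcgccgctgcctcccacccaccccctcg
The KDM4A window held 3 CCAAT matches, all read on the opposite strand as ATTGG, and no match to the other motifs. The KDM4C window held 2 E-box matches and 1 antioxidant response element core, which overlaps the second E-box. A match is a description of letters, not evidence of a bound factor.

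The other demethylases that rose act on different residues. KDM6A, an H3K27 demethylase encoded on the X chromosome, stood at 40.5, 38.6 and 37.5 CPM in shPRSS22 and 34.7, 33.3 and 34.6 CPM in shCtrl (log2 fold change 0.18, SE 0.0566, adjusted p = 0.00968). KDM7A, a demethylase of H3K9 and H3K27, stood at 63.3, 62.6 and 72.1 CPM in shPRSS22 and 58.5, 59.0 and 59.8 CPM in shCtrl (0.16, SE 0.0508, adjusted p = 0.0122). The library shPRSS22-3 was well above the other two, and without it the log2 fold change was 0.09 (adjusted p = 0.154). KDM2A, an H3K36 demethylase with a zinc finger for unmethylated CpG, stood at 99.6, 94.6 and 98.4 CPM in shPRSS22 and 88.5, 87.9 and 89.9 CPM in shCtrl (0.14, SE 0.0400, adjusted p = 0.00726). KDM5C, an H3K4 demethylase also encoded on the X chromosome, rose least, with 151 ± 5.82 CPM in shPRSS22 and 139.8 ± 3.91 CPM in shCtrl (0.11). For all 4 of these genes the groups did not overlap.

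Of the H3K9 demethylases KDM3A and KDM3B, only KDM3B passed, and it fell: 133 ± 5.26 CPM in shPRSS22 against 144.8 ± 1.15 CPM in shCtrl (log2 fold change -0.12, SE 0.0369, adjusted p = 0.00919). The difference between these paralogs was not tested. KDM8, the lowest tested member, had the largest log2 fold change of all members, 0.45, but it did not pass (SE 0.219, adjusted p = 0.101). Its 2.61 ± 0.294 CPM in shPRSS22 and 1.90 ± 0.454 CPM in shCtrl rest on few counts, and it passed without shCtrl replicate 1 (0.65, adjusted p = 0.0471). The 10 demethylases that did not pass ranged from -0.11 to 0.45. Besides that of KDM7A, 4 of the calls were lost when single libraries were left out. KDM4C no longer passed on omitting shCtrl-1 (adjusted p = 0.0968) or shPRSS22-2 (0.0559), and KDM6A on omitting shCtrl-2 (0.0502) or shPRSS22-1 (0.0610). KDM5C no longer passed on omitting shCtrl-3 (adjusted p = 0.0796), shPRSS22-1 (0.0659) or shPRSS22-3 (0.0536), and KDM3B on omitting shPRSS22-2 (0.0641).

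**Figure D3:**
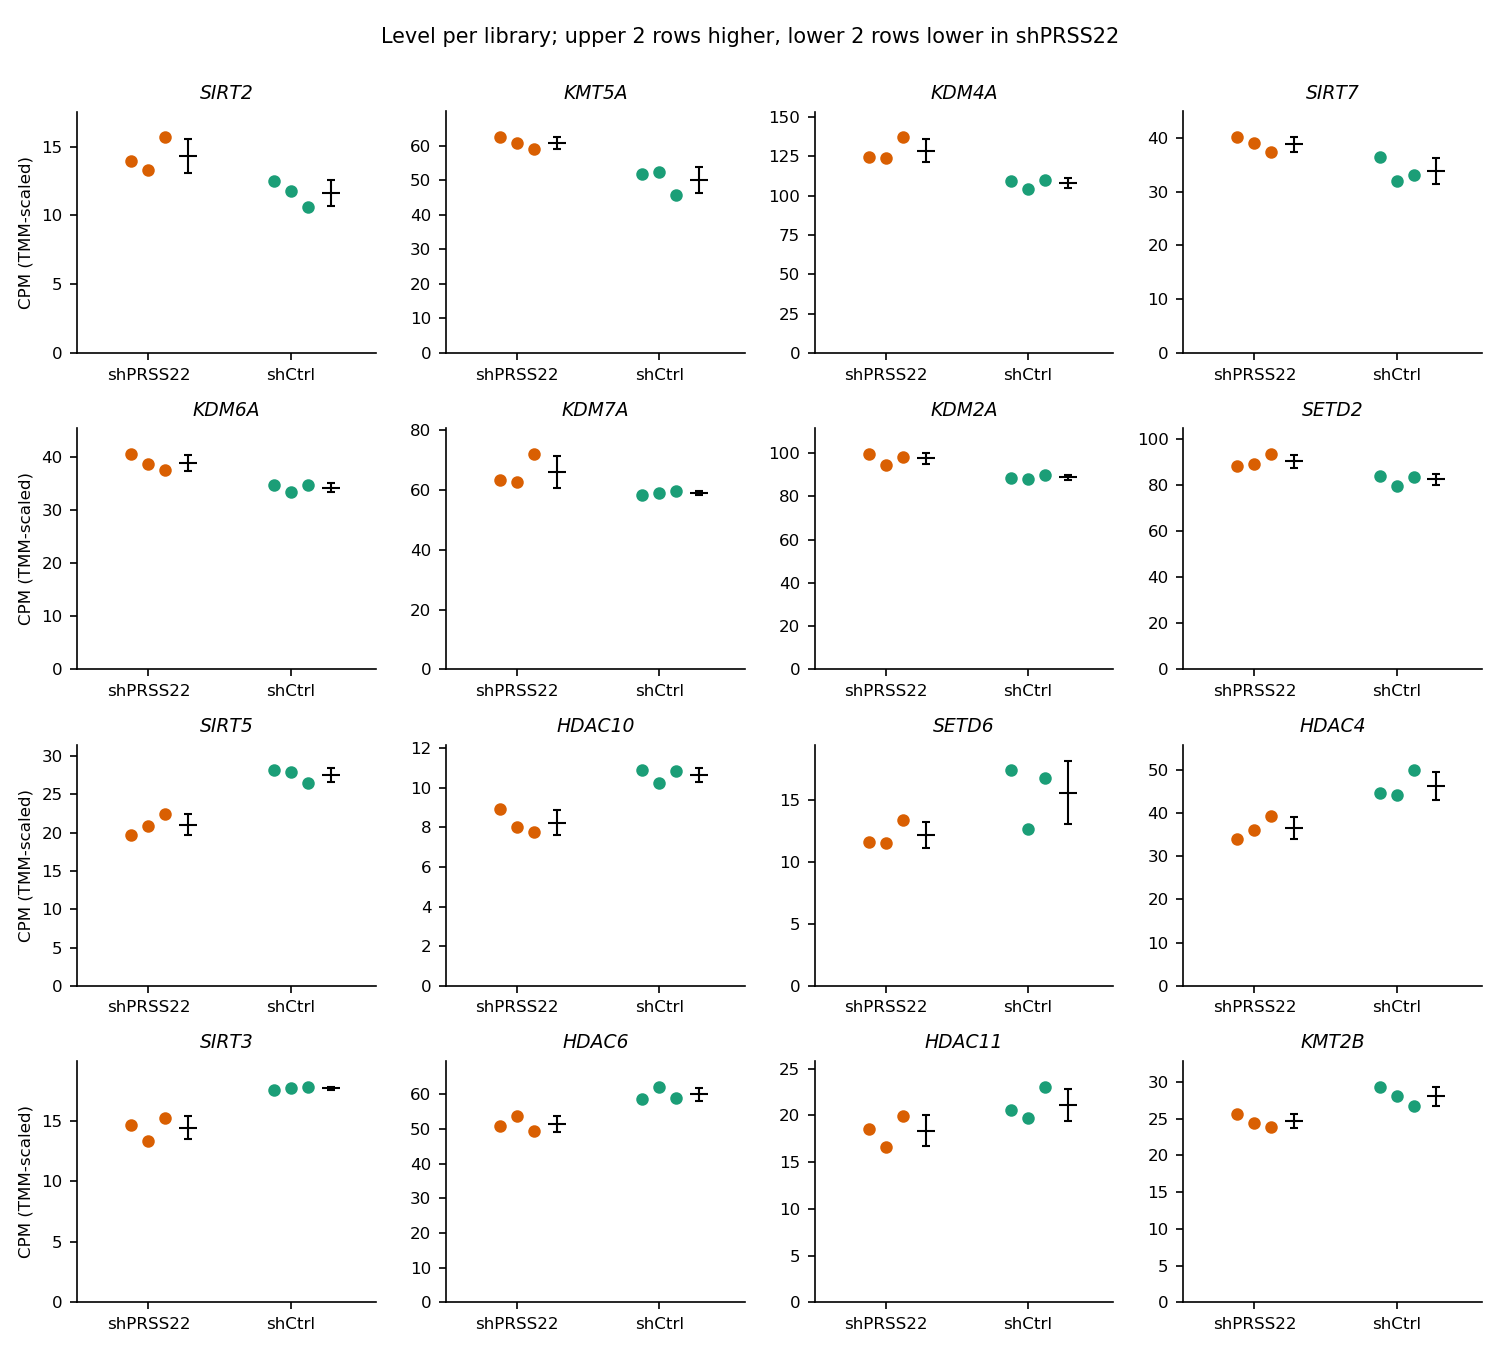
TMM-scaled CPM (axes from 0) in each of the 3 shPRSS22 (orange, left) and 3 shCtrl libraries (green, right) for the 8 members with the largest rise and the 8 with the largest fall among those that passed; the bar beside the points is the mean with its SD. SETD6 and HDAC11 are the panels in which the groups overlap.

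Among the methyltransferases 3 of 19 rose and 3 fell, where 19.9% of all genes tested rose and 19.3% fell. KMT5A, which places the single methyl group on H4K20 and is controlled through the cell cycle, rose most. It stood at 62.4, 60.8 and 59.0 CPM in shPRSS22 and 51.9, 52.4 and 45.8 CPM in shCtrl, with no overlap (log2 fold change 0.28, SE 0.0522, adjusted p = 7.02e-05). The enzymes that add further methyl groups to the same residue did not pass: KMT5B had a log2 fold change of -0.04 (SE 0.0462). KMT5C had one of -0.31 (SE 0.126, adjusted p = 0.0506), just outside the threshold. It passed on omitting shCtrl-1 (-0.37, adjusted p = 0.0439) or shPRSS22-2 (-0.45, adjusted p = 0.0122) and with no filter on low counts (adjusted p = 0.0411). It did not pass on omitting shCtrl-2 (-0.22, adjusted p = 0.246), shCtrl-3 (0.0702), shPRSS22-1 (0.184) or shPRSS22-3 (0.165), nor with DESeq2's test (0.203).

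SETD2, the enzyme that trimethylates H3K36 along transcribed genes, stood at 88.0, 89.0 and 93.4 CPM in shPRSS22 and 83.9, 79.6 and 83.5 CPM in shCtrl (log2 fold change 0.13, SE 0.0420, adjusted p = 0.0134). SETD3, which methylates a histidine of actin, rose by 0.12 (77.5 ± 2.35 CPM in shPRSS22 and 71.2 ± 1.20 CPM in shCtrl). Neither pair of groups overlapped. SETD2 failed the threshold on omitting shCtrl-2 (adjusted p = 0.0889) or shPRSS22-3 (0.0664), and SETD3 on omitting shCtrl-1 (0.0737), shCtrl-2 (0.0830) or shPRSS22-1 (0.126).

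The 6 catalytic subunits of the H3K4-methylating COMPASS complexes, KMT2A to KMT2D with SETD1A and SETD1B, gave 1 call. KMT2B fell, at 25.7, 24.5 and 23.9 CPM in shPRSS22 and 29.3, 28.1 and 26.7 CPM in shCtrl (log2 fold change -0.18, SE 0.0650, adjusted p = 0.0237). It failed the threshold on omitting any of 4 libraries: shCtrl-1 (adjusted p = 0.1197), shCtrl-2 (0.0625), shPRSS22-2 (0.0595) or shPRSS22-3 (0.0776). The subgroup's log2 fold changes ranged from -0.18 to 0.09. KMT2E, a divergent SET protein that binds methylated H3K4 through its PHD finger, fell as well, without overlap of its groups: 60.8 ± 2.49 CPM in shPRSS22 and 68.7 ± 1.95 CPM in shCtrl (-0.18, SE 0.0466, adjusted p = 0.00293).

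SETD6, which methylates the NF-kB subunit RELA, had the largest fall among methyltransferases, with 11.6, 11.6 and 13.5 CPM in shPRSS22 and 17.4, 12.7 and 16.8 CPM in shCtrl (log2 fold change -0.35, SE 0.105, adjusted p = 0.00838). The second shCtrl library lay within the shPRSS22 range, and SETD6 no longer passed on omitting shCtrl-1 (adjusted p = 0.0699) or shCtrl-3 (0.0542). In the GENCODE 29 annotation 21.4% of the exon bases of SETD6 overlap exons of CNOT1 on the other strand, and CNOT1, at a mean of 4612 counts, rose by 0.13; without strand marking, reads of both genes cannot be told apart there. SETDB1 and SETDB2, the H3K9 methyltransferases, did not overlap between groups, with log2 fold changes of -0.10 and -0.20, but did not pass (adjusted p = 0.125 and 0.103). The 13 methyltransferases that did not pass ranged from -0.31 to 0.09.

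Among the zinc-dependent deacetylases 0 of 11 rose and 4 fell, all outside class I. Neither edgeR nor DESeq2 called any of them higher (0 by adjusted p in each), and at an unadjusted p under 0.05 the number higher was 0 by edgeR and 0 by DESeq2. The 4 class I enzymes, HDAC1, HDAC2, HDAC3 and HDAC8, had log2 fold changes between -0.01 and 0.05, and 4 of the 7 others fell. Over all genes tested edgeR called 19.9% higher and 19.3% lower, and DESeq2 13.8% and 12.9%; with 11 genes, and no test of class I against the other classes, these counts are a description. HDAC4, a class IIa enzyme that shuttles between nucleus and cytoplasm and represses MEF2 targets, stood at 34.0, 36.1 and 39.2 CPM in shPRSS22 and 44.6, 44.0 and 49.8 CPM in shCtrl. The groups lay apart, and the log2 fold change was -0.34 (SE 0.0601, adjusted p = 3.14e-05). The other class IIa enzymes HDAC5, HDAC7 and HDAC9 had values of 0.04, 0.11 and -0.16 and did not pass.

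Both class IIb enzymes fell. HDAC6, the cytoplasmic tubulin deacetylase, stood at 50.9, 53.8 and 49.5 CPM in shPRSS22 and 58.8, 62.1 and 58.9 CPM in shCtrl (log2 fold change -0.22, SE 0.0493, adjusted p = 5.62e-04). HDAC10, which deacetylates polyamines, stood at 8.94, 8.02 and 7.77 CPM in shPRSS22 and 10.9, 10.2 and 10.8 CPM in shCtrl (-0.37, SE 0.105, adjusted p = 0.00557). Exons of HDAC10 and MAPK12 share 55.8% of the HDAC10 exon bases on the same strand in GENCODE 29, and MAPK12 had a log2 fold change of -0.11 that did not pass. HDAC11, the class IV enzyme, had 18.5, 16.6 and 19.98 CPM in shPRSS22 and 20.6, 19.7 and 23.1 CPM in shCtrl, ranges that overlap (-0.20, SE 0.0799, adjusted p = 0.0440). It failed the threshold on omitting shCtrl-1 (adjusted p = 0.0643), shCtrl-3 (0.263), shPRSS22-1 (0.0704) or shPRSS22-2 (0.236), and its log2 fold change was -0.13 on omitting either shCtrl-3 or shPRSS22-2.

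Among the sirtuins 2 of 7 rose and 2 fell, where 19.9% of all genes tested rose and 19.3% fell. SIRT5, the mitochondrial enzyme that removes succinyl, malonyl and glutaryl groups, fell most of all members. It stood at 19.7, 20.9 and 22.5 CPM in shPRSS22 and 28.1, 27.9 and 26.5 CPM in shCtrl, with a gap between the groups wider than the spread within either (log2 fold change -0.39, SE 0.0684, adjusted p = 3.23e-05). SIRT3, the main mitochondrial deacetylase, stood at 14.7, 13.3 and 15.2 CPM in shPRSS22 and 17.5, 17.7 and 17.8 CPM in shCtrl, also without overlap (-0.29, SE 0.0818, adjusted p = 0.00482). SIRT4, the remaining mitochondrial sirtuin, had a log2 fold change of 0.27 at about 4 to 5 CPM and did not pass (SE 0.165, adjusted p = 0.193). In GENCODE 29 the antisense gene AL441883.1 overlaps 16.1% of the SIRT5 exon bases. Exons of the oppositely transcribed PSMD13, which rose by 0.11, overlap 6.07% of the SIRT3 exon bases.

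The window around the SIRT5 start, chr6:13574351-13574650 on the plus strand of GRCh38.p14, is shown because this gene fell most.
SIRT5: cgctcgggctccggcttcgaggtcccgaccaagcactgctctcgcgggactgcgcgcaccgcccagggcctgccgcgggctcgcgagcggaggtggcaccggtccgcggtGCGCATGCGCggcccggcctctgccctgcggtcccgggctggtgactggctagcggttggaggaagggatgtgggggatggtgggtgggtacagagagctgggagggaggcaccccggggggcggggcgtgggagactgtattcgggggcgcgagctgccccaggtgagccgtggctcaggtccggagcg
Capitals mark the NRF1 motif, a palindromic element found near many genes for mitochondrial proteins, here present once. The same motif was found in 7.69% of the 52 member windows with a RefSeq entry and in 5.78% of all 35116 windows. CCAAT boxes occurred in 5 of 9 windows of members that rose and 4 of 11 of members that fell, against 34.6% of all windows. The antioxidant response element core was in 0 of 9 and 2 of 11 of them, against 13.3% of all windows, and the E-box in 1 of 9 and 2 of 11, against 7.26%. The cAMP response element was in none of the windows of called members and in 1.85% of all windows.

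Outside mitochondria, SIRT2, the cytosolic deacetylase of tubulin and of H4K16, rose, at 13.96, 13.3 and 15.7 CPM in shPRSS22 and 12.5, 11.8 and 10.6 CPM in shCtrl (log2 fold change 0.30, SE 0.0944, adjusted p = 0.0117). SIRT7, a nucleolar deacetylase of H3K18, rose, at 40.1, 39.0 and 37.4 CPM in shPRSS22 and 36.5, 31.9 and 33.04 CPM in shCtrl (0.20, SE 0.0596, adjusted p = 0.00761). Its exons share 1.71% of their bases with MAFG, which rose by 0.44. The nuclear enzymes SIRT1 and SIRT6 had log2 fold changes of 0.06 (SE 0.0502) and 0.10 (SE 0.0714) and did not pass, although the groups did not overlap for SIRT6. SIRT2 no longer passed on omitting shCtrl-3 (adjusted p = 0.0719) or shPRSS22-3 (0.0764), and SIRT7 on omitting shCtrl-2 (0.0646).

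**Figure D4:**
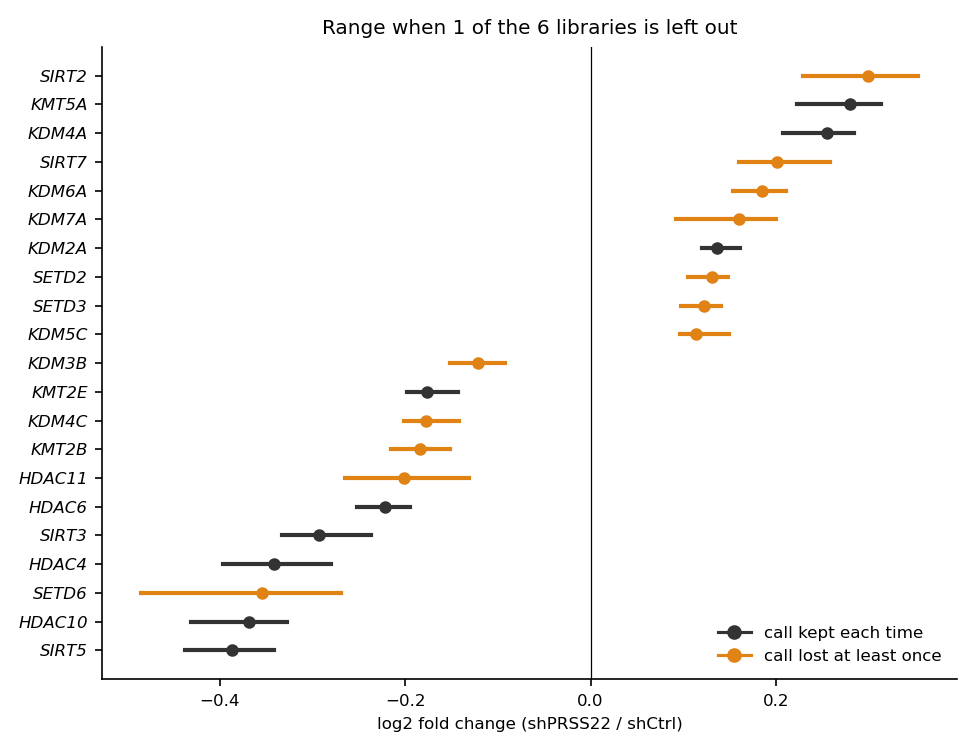
Log2 fold change of the 21 called members over all 6 libraries (points) and the range of values when 1 library is left out (lines). Black members kept their call each time, 9 in all; orange members, 12 in all, lost it at least once, and no line crosses 0.

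Leaving out each library in turn kept the direction of all 21 called members and the call of 9: HDAC4, HDAC6, HDAC10, KDM2A, KDM4A, KMT2E, KMT5A, SIRT3 and SIRT5. DESeq2, which called 13.8% of its genes higher and 12.9% lower, kept 9 of the 21 calls. HDAC10 (adjusted p = 0.0576) and SIRT3 (0.0512) were among the 12 it did not keep. HDAC4, HDAC6, KDM2A, KDM4A, KMT2E, KMT5A and SIRT5 passed under all 11 alternatives tried. By the q-value of the authors' deposited table, with a threshold of 0.05, there were 2 members higher and 4 lower. Among all its genes with a p-value, 9.69% were higher and 8.89% lower by the same rule. In the authors' deposited table these 6 members were KDM4A, KMT5A, HDAC4, HDAC6, KMT2E and SIRT5, each in the direction found here.

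The enzymes and subunits that work beside the members were read from 6 lists, whose counts stand beside 19.9% higher and 19.3% lower among all genes tested and are given as descriptions. Of 23 other histone and arginine methyltransferases 5 rose and 4 fell (median log2 fold change -0.05, against -0.01 over all genes tested). EZH2 and EZH1, the alternative catalytic subunits of the H3K27 methyltransferase PRC2, moved in opposite directions: EZH2 had 39.6 ± 1.61 CPM in shPRSS22 and 32.7 ± 0.898 CPM in shCtrl (log2 fold change 0.28, SE 0.0571, adjusted p = 2.48e-04), while EZH1 had 26.2 ± 2.84 CPM in shPRSS22 and 32.6 ± 0.609 CPM in shCtrl (-0.31, SE 0.0678, adjusted p = 3.91e-04). SMYD3 (0.34) rose and SMYD5 (-0.33) fell. Of 9 other PRC2 subunits 3 rose and 2 fell (median 0.07), with PHF1 (0.26) and AEBP2 (0.12) higher and EPOP (-0.23) and JARID2 (-0.20) lower.

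Of 12 tested other JmjC proteins 5 rose and 1 fell (median 0.06). RIOX1, a nucleolar JmjC oxygenase, had the largest rise of the list (0.53, SE 0.132, adjusted p = 0.00183) at 7.41 ± 0.906 CPM in shPRSS22 and 5.13 ± 0.399 CPM in shCtrl. JMJD6 rose by 0.35, and HIF1AN, the asparagine hydroxylase of hypoxia-inducible factor, fell (-0.14). Of 15 acetyltransferases, which oppose the deacetylases, 3 rose and 5 fell (median -0.03). NCOA3, a coactivator of nuclear receptors, had 159.2 ± 8.32 CPM in shPRSS22 and 112.7 ± 1.98 CPM in shCtrl (0.50, SE 0.0391), and HAT1 rose by 0.22; TAF1 (-0.27) and KAT2A (-0.23) fell.

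Of 13 other subunits of COMPASS complexes 2 rose, CXXC1 (0.25) and DPY30 (0.21), and PAGR1 fell (-0.18), with a list median of 0.01. Of 38 tested corepressor subunits, which carry HDAC1, HDAC2, HDAC3 or KDM1A, 13 rose and 6 fell (median 0.03), where 19.9% of all genes tested rose and 19.3% fell. The largest rises were those of the NCOR subunits TBL1XR1, with 242.3 ± 4.82 CPM in shPRSS22 and 178.0 ± 2.12 CPM in shCtrl (0.44, SE 0.0333), and TBL1X (0.26). MTA1, a NuRD subunit, was among those that fell (-0.17). AEBP2, DPY30, PAGR1 and KAT2A each lost the call when single libraries were left out. AEBP2 did so for 5 of the 6 libraries, all but shPRSS22 replicate 3 (adjusted p up to 0.167), DPY30 on omitting shCtrl-1 (0.0555) or shCtrl-2 (0.0510), PAGR1 on omitting shCtrl-1 (0.125) or shPRSS22-3 (0.0640), and KAT2A on omitting shCtrl-2 (0.0535) or shPRSS22-3 (0.0624).

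**Figure D5:**
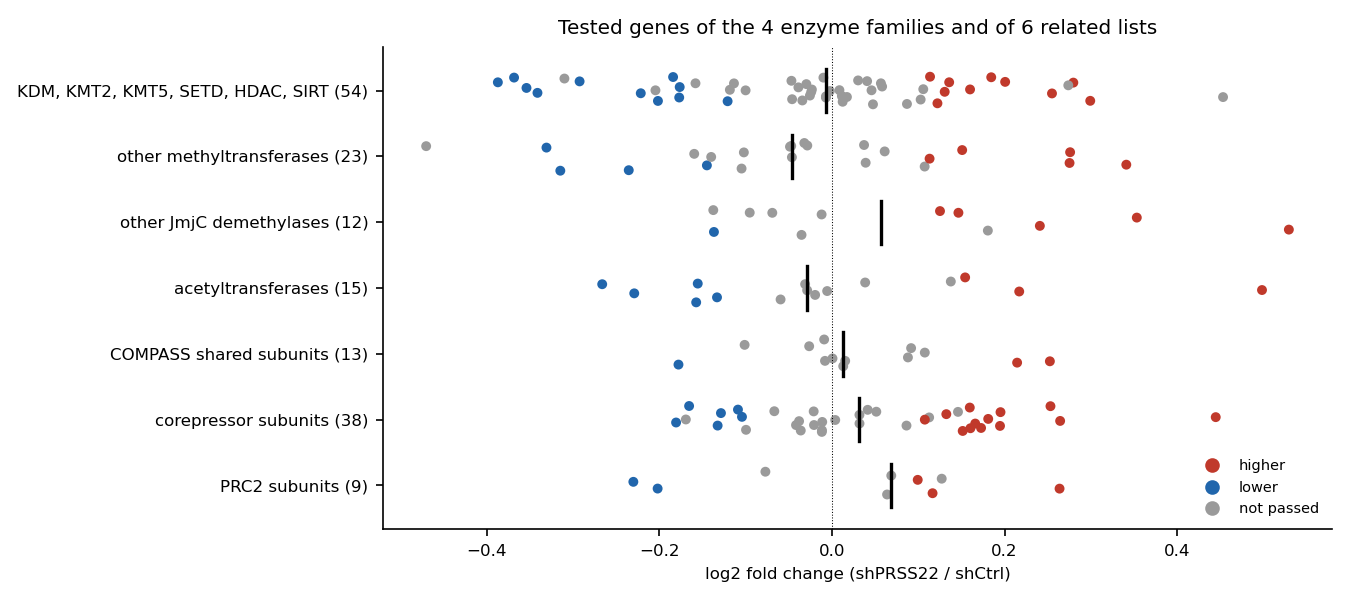
Log2 fold change (shPRSS22 over shCtrl) of each tested gene among the members and in the 6 related lists, with the number tested in brackets; red genes were higher, blue lower, grey did not pass, and the black bar is the list's median. The medians lie between -0.05 and 0.07.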

How the data were processed

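Poly(A) RNA of 6 HCT116 libraries was sequenced. The submitters' processing notes name R 4.3.1, RSEM 1.3.1, HISAT2 2.2.1, DESeq2 1.4.5, FastQC 0.12.1, the aligner Bowtie2 2.3.4.3 and the build GRCh38.p13, without their roles. Per the file headers, the deposited table holds estimated counts, TPM, and the authors' log2 fold change, p-value and q-value; 20 other columns were not used. The estimated counts, of which 2081 to 2162 genes per library carry decimals, were rounded; the 5 members with decimals were KMT2E, SETD6, SETDB2, SIRT3 and SIRT5. Differences were tested by quasi-likelihood in edgeR 4.0.16 under R 4.3.3 (TMM, filterByExpr, two-sided, threshold 0.05), with Benjamini-Hochberg adjustment over 13104 genes. A check on simulated data required recovery only of changes larger than that of any called member. The common coefficient of variation was 2.97%, and replicates differed beyond counting noise (chi-square per gene 1.80 to 3.05). Each library was counted as 1 replicate, although this spread may be technical. SE is the log2 fold change divided by the square root of F.

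Every member that passed is named, with full values for the 8 largest rises and 8 largest falls at a mean of at least 1 CPM, and in each list the 2 largest rises and falls, except 1 gene that is not reported here; other named members were chosen after their values were seen. Members, lists and role groups were chosen with earlier results of these data known. Alternatives were DESeq2 1.42.0, its size factors, other filters, a replicate block and leaving out each library. Sequences are RefSeq windows of GRCh38.p14, matched by symbol for 52 members.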

Additional observations from a re-analysis of the deposited data

How the results depend on the processing

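Counts of members and lists did not move by more than 1.5 times with DESeq2's size factors or either change of the low-count filter, and no called member was reversed under any alternative. With DESeq2's test 1637 genes were lower over the table, and 3 members were higher and 6 lower. In the lists, 2 other methyltransferases were lower, 3 other JmjC proteins higher and 2 acetyltransferases lower. That test also gave 1 COMPASS subunit higher and 0 lower, 3 corepressor subunits lower and 1 PRC2 subunit higher. With 1 library left out, 6 to 10 members were higher and 8 to 10 lower. Over the table these fits gave 2161 to 2484 genes higher and 2079 to 2271 lower, fewer than the 2603 and 2523 with all libraries. The members higher numbered 6 without shCtrl replicate 2 or shPRSS22 replicate 3. Over the same leave-one-out fits 2 to 4 other methyltransferases were lower, and 3 to 5 other JmjC proteins were higher and 1 to 2 lower. They gave 3 to 5 acetyltransferases lower, and 1 to 3 COMPASS subunits higher and 0 to 1 lower. In these fits 8 to 12 corepressor subunits and 1 to 2 PRC2 subunits were higher. Of the 33 members that did not pass, 14 changed sign when at least 1 library was left out, among them HDAC2 (-0.0283 to 0.00495), HDAC3 (-0.0158 to 0.0286), KDM1A (-0.0487 to 0.0160) and KDM4D (-0.259 to 0.0416). The cause of these shifts was not tested. Whether the replicate number pairs the libraries could not be decided. Correlations of deviations from group means were 0.0205, 0.0460 and 0.129 for same-numbered libraries. For differently numbered libraries they lay between -0.142 and 0.0996. Over the table a replicate block gave 2782 genes higher and 2747 lower, against 2603 and 2523 without it. With the replicate number as a block 10 members were higher and 12 lower, KMT5C (adjusted p = 0.0276) being the added one, and 2 other JmjC proteins were lower. KDM8, KDM4D and SIRT4, the tested members with the fewest counts, had the largest standard errors.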
